A study of Homo sapiens with 26 samples.

Results

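Guides against 7 genes, grouped as transcriptional CDKs and regulators of the C-terminal domain (CTD) of RNA polymerase II, were followed through the RH4 screens. These genes were the kinases CDK7, CDK9, CDK10, CDK11A and CDK12, the CDK7 partner cyclin H (CCNH), and the phosphatase CTDP1. The members are all guides filed under these gene names in the count files. They come to 141 of 12342 guide entries of the series, 135 in 5 library pools and 6 in the exon scan. The test library carried 0 of the 7 genes. CDK7, CDK9, CDK10, CDK11A, CDK12 and CTDP1 were each carried by a CF pool and a KP pool, and CCNH by CF1 only, which gives 13 measurements of a gene in a pool. No guide name occurred in more than 1 pool. Guide sequences were not used here, so whether a CF and a KP pool share guides was not tested, and no sequence is shown.

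As background, RNA polymerase II carries a long tail of repeats, the CTD, whose phosphorylation changes as a gene is transcribed. CDK7 with cyclin H and MNAT1 forms the CDK-activating kinase, which works within the initiation factor TFIIH and also activates other CDKs. CDK9, with a T-type cyclin, forms P-TEFb, which releases paused polymerase into elongation. CDK12 with cyclin K supports elongation of long genes and of DNA repair genes. CDK11 proteins act with L-type cyclins in splicing and transcription, and CDK10 pairs with cyclin M (CCNQ). CTDP1, also called FCP1, removes phosphate from the CTD so that polymerase can be used again.

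RH4 is an established alveolar rhabdomyosarcoma cell line; the labels give its genotype as PAX3-FOXO1+, and all groups are RH4 cells that received a guide library. Guide counts hold no marker levels, so the cell type was not checked. In the differentiation sort, infected cells under drug selection were taken at day 7 and an antibody against myosin heavy chain (MYH), which marks differentiated muscle, split them into an MYH high and an MYH low arm. Pools CF1, CF2, CF3, KP1 and KP2 and the exon scan were sorted in this way. What the pool names stand for is not given in the sources used here. The exon scan was also harvested at day 3 and, after drug selection, at day 18 with no sort, to follow loss of guides from the culture. Every arm is a single library (1 sample), so no difference has a replicate check and no test between the arms of a library was run. The error beside a gene is the SD over its guides, which share cells and library.

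Total counts ran from 21819567 to 166032777 in the 10 samples of the KP and CF pools and from 41345356 to 61334210 in the 4 samples of the exon scan. Each member guide had at least 7587 counts in either arm, and the counting error of its log2 ratio lay between 0.0037 and 0.019, which is below the SD over guides of every member. Reads from PCR are not independent molecules, so this covers counting error only. Values are counts scaled to a common library total of 1e6 (CPM), and ratios are log2 of MYH high CPM + 1 over MYH low CPM + 1, centred on the median guide of the pool. Uncentred pool medians lay between -0.14 and -0.066, so a centred ratio is higher than the ratio of the printed CPM values, and a gene can have a ratio above 0 with a lower CPM in MYH high cells. In CF3, which carried CDK10, the 10 negative-control guides had a median of 1.30, where the other 9 pools had -0.11 to 0.067.

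None of the 7 genes lay far from 0 in the MYH sort. Medians over guides ran from -0.16 (CCNH in CF1) to 0.060 (CDK10 in KP2), and 0 of 13 measurements reached the limit of 0.3 on the log2 scale, a 1.23-fold difference. Among all 983 targets of the 10 pools with at least 3 guides, 2.24% reached that limit, 1.53% as higher and 0.712% as lower in MYH high cells. The count for the members is therefore near the background. Below the limit, 9 of 13 measurements had a median under 0, where 53.6% of all targets did. With no centring all 13 did, but each pool median then also lay below 0, between -0.14 and -0.066. The share of all targets below 0 with no centring was not counted, so the 13 of 13 has no background. Without CF3, 8 of 12 centred medians were under 0, against 53.4% of targets. Of the 12, 0 reached the limit, where 2.05% of targets did and 0.57% did as lower. The median of the 13 medians was -0.083, beside -0.0089 over all targets. The members below 0 in each library that carried them were CDK7, CCNH, CDK9 and CTDP1.

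At the level of guides, 15 of the 135 member guides in the pools (11.1%) lay at or below -0.3 and 4 (2.96%) at or above 0.3. Over all targeting guides of the same 5 pools these shares were 6.97% and 7.46%. Without CF3, 14 of 125 member guides (11.2%) lay at or below -0.3, beside 4.25% of all targeting guides of the 4 pools. All 4 member guides at or above 0.3 were in these pools, where 5.82% of targeting guides were. Under 0 lay 88 of the 135 guides (65.2%), beside 51.8% of all targeting guides. Of the 15 low guides, 4 belonged to CDK7, 3 to CDK9 and 5 to CTDP1.

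CDK7, the catalytic subunit of the CDK-activating kinase, was lower in MYH high cells of CF1 through a part of its guides. Its 10 guides in CF1 had a median of 543.7 CPM in MYH high (range 358.9 to 1067) and 668.3 CPM in MYH low (486.3 to 1125). The ranges of both arms overlap widely, since guides of one gene differ in abundance. The centred median log2 ratio was -0.14 (SD over guides 0.21), or 1.10-fold lower in MYH high cells, with 7 of 10 guides below 0. Centred on the negative controls of CF1, the median was -0.21. The widest gap between neighbouring guides was 0.19. Other measurements had gaps as wide, such as 0.23 for CDK9 in KP2, so 2 separate groups of guides are not shown. Below the gap, sgRNA_10015 had 420.4 CPM in MYH high and 650.4 CPM in MYH low, which gives a log2 ratio of -0.55. The other 3 below it, sgRNA_10011, sgRNA_10017 and sgRNA_10019, had -0.40, -0.36 and -0.35. The remaining 6 guides lay between -0.16 and 0.066, so 4 guides were low and 6 lay nearer to 0. Of all targeting guides in CF1, 5.48% lay at or below -0.3, where CDK7 had 4 of 10.

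In KP1 the CDK7 guides lay closer together. They had a median of 743.3 CPM in MYH high (470.9 to 1345) and 824.7 CPM in MYH low (568.7 to 1483). The median log2 ratio was -0.081 (SD over guides 0.11), with 8 of 10 guides below 0 (51.4% of all targeting guides of KP1) and none at or below -0.3, the lowest at -0.23. In KP1 the targets as a whole were also less spread, with 1.21% of targeting guides at or below -0.3. CDK7 held rank 10 of 107 targets from the lowest in CF1 and rank 10 of 99 in KP1.

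CCNH, the cyclin that activates CDK7, had the lowest median of the 13 measurements and the most even guides below 0. Its 10 guides in CF1 had a median of 582.8 CPM in MYH high (357.4 to 983.4) and 689.3 CPM in MYH low (462.7 to 1108). The median log2 ratio was -0.16 (SD over guides 0.080), or 1.12-fold lower in MYH high cells, with 10 of 10 guides below 0, from -0.29 to -0.072. In CF1 52% of all targeting guides lay below 0. No CCNH guide reached -0.3, so all guides lay slightly low, rather than a few far below. The gene held rank 8 of 107 targets in CF1. Centred on the negative controls of CF1, the CCNH median was -0.23. MNAT1, which joins CDK7 to cyclin H, was carried by CF2 and had a median of -0.17 on the log2 scale (SD over guides 0.21) with 6 of 10 guides below 0. In CF2 51.4% of all targeting guides lay below 0, and the negative controls had a median of -0.093. Thus all 3 subunits of the CDK-activating kinase had medians below 0, each within 0.3 of it. Of all targets 53.6% had a median below 0, so 3 subunits are too few to set them apart.

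CDK9, the kinase of P-TEFb, was below 0 in both pools and in the exon scan sort. In CF2 its 10 guides had a median of 568.2 CPM in MYH high (278.0 to 967.2) and 758.4 CPM in MYH low (324.0 to 1173). The median log2 ratio was -0.13 (SD over guides 0.21), or 1.09-fold lower in MYH high cells, with 8 of 10 guides below 0 (51.4% of all targeting guides of CF2). Centred on the negative controls of CF2, the median was -0.035. The lowest guide, sgRNA_9666, had 629.6 CPM in MYH high and 1007 CPM in MYH low, a log2 ratio of -0.54. It and sgRNA_9663 at -0.38 were at or below -0.3, as were 7.44% of all targeting guides of CF2. In KP2 the CDK9 guides had medians of 710.0 CPM in MYH high (433.5 to 1488) and 834.5 CPM in MYH low (373.3 to 1618). Their median log2 ratio was -0.076 (SD over guides 0.19) with 7 of 10 guides below 0 (51.3% of all targeting guides of KP2). These guides ran both ways, from -0.39 to 0.30, with 1 at or below -0.3 and 1 at or above 0.3, where KP2 as a whole had 2.34% and 5.48%.

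In the exon scan, whose ratios are centred on its 790 negative-control guides, the 6 CDK9 guides had medians of 651.0 CPM in MYH high and 764.2 CPM in MYH low. The median for the 6 was -0.11 (SD over guides 0.070), and 6 of 6 guides lay below 0 (50% of the controls by construction), from -0.17 to -0.0069. None reached -0.3, as 2.28% of the controls did, and none lay below the 2.5th percentile of the controls, which was -0.29. Over the 3 libraries the CDK9 medians had a mean of -0.10 ± 0.026 (SD, n = 3 libraries), with 3 of 3 below 0. Flipping the signs of the 3 medians in all ways, an exact permutation test (two-sided), gave p = 0.25, the smallest value that 3 libraries allow. With 2 pools, as for the other members, that smallest value is 0.5, so no such test was run for them. With the scan centred on all its guides, as the pools are, its CDK9 median was -0.17 and the mean over 3 libraries -0.13 ± 0.049 (SD, n = 3 libraries).

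The exon scan also gives the only fitness readout of a member. From day 3 to day 18 the median for the 6 CDK9 guides was -0.23 on the log2 scale (SD over guides 0.26), or 1.17-fold lower at day 18 relative to the negative controls, with 5 of 6 below 0. In CPM without that centring the medians were alike, 672.0 at day 3 and 673.7 at day 18. The guides furthest below the control median were 3. The guide named CDK9_e5.2 had 1117 CPM at day 3 and 867.5 CPM at day 18, a log2 ratio of -0.59 against the controls. CDK9_e2.1 had 285.4 CPM at day 3 and 229.9 CPM at day 18, a log2 ratio of -0.54. Both were under the controls' 2.5th percentile (-0.34), and 0% of the 790 controls were lower than either. CDK9_e5.1, at 846.9 CPM at day 3 and 792.7 CPM at day 18, had -0.32, with 3.04% of controls lower.

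The other guides stayed within the controls. CDK9_e4.2 had -0.13, CDK9_e4.1 had -0.071 and CDK9_e3.1 had 0.049. At or below -0.3 were 3 of the 6 CDK9 guides and 3.8% of the negative controls. The same 3 guides, of exons 5 and 2, had the 3 lowest ratios in the MYH sort, between -0.17 and -0.11. The Spearman correlation between both ratios was 0.77 over 6 guides, which share the infected culture and the target gene. The dropout median depended on the centring. It was -0.073 when centred on all 1619 guides of the scan, -0.061 with TMM factors (edgeR's scaling between the arms) and 0.0022 with no centring. Within the scan, guides to PAX3, FOXO1 and MYOD1 had medians of -0.84, -0.42 and -0.78 from day 3 to day 18, relative to the controls.

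Beside the other gene sets of the scan with at least 3 guides, CDK9 had the median nearest 0 at day 18. POLR2A, the subunit that bears the CTD, had a median of -0.41 (SD over 8 guides 0.71) from day 3 to day 18, and the mitotic kinase CDK1 had -0.81 (SD over 5 guides 0.52). In the sort CDK9 and POLR2A had the 2 lowest medians of these sets, -0.11 and -0.088, while CDK1 had 0.24. These differences rest on few guides and were not tested.

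CTDP1, the CTD phosphatase, had medians of -0.10 in CF2 and -0.11 in KP2; centred on the negative controls of each pool these were -0.0080 and -0.11. CF2 carried 15 guides against it, with medians of 741.4 CPM in MYH high (379.7 to 1811) and 891.6 CPM in MYH low (414.0 to 2710). The median log2 ratio was -0.10 (SD over guides 0.18), with 13 of 15 guides below 0. The widest gap between neighbouring guides was 0.17, which, as with CDK7 in CF1, does not show separate groups. The lowest of the 5 guides below the gap was sgRNA_10530, with 1781 CPM in MYH high and 2710 CPM in MYH low. Its log2 ratio was -0.47. The others below the gap, sgRNA_10526, sgRNA_10524, sgRNA_10527 and sgRNA_10522, lay between -0.42 and -0.31. The 10 guides above the gap lay between -0.14 and 0.12. CTDP1 thus had 5 of 15 guides at or below -0.3, beside 7.44% of all targeting guides of CF2. The CTDP1 mean over guides, -0.17, was lower than the median.

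In KP2 the 10 CTDP1 guides had medians of 757.3 CPM in MYH high (444.7 to 1953) and 849.1 CPM in MYH low (527.8 to 2209). The median log2 ratio was -0.11 (SD over guides 0.097), with 7 of 10 guides below 0 and the lowest at -0.21. CTDP1 held rank 7 of 98 targets in KP2, the nearest to the bottom of the 4 members that this pool carried, and rank 25 of 105 in CF2.

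CDK12 and CDK10 differed in sign between their pools. For CDK12, 10 guides in CF1 had medians of 734.1 CPM in MYH high (290.4 to 1376) and 785.2 CPM in MYH low (285.6 to 1261), and a median ratio on the log2 scale of 0.023 (SD over guides 0.18). That median sits in a gap of 0.20 between 5 guides from -0.34 to -0.078 and 5 guides from 0.12 to 0.21, so it describes no guide. The mean over these guides was -0.0040. None of them reached 0.3, as 5.75% of all targeting guides of CF1 did. In KP2 CDK12 had 924.0 CPM in MYH high (598.7 to 2123) and 1035 CPM in MYH low (573.8 to 2375), and a median of -0.083 (SD over guides 0.12) with 7 of 10 guides below 0.

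CDK10 had the highest and one of the lowest values of the members. In KP2 its guides had medians of 1021 CPM in MYH high (901.0 to 1498) and 1015 CPM in MYH low (896.0 to 1540). The median log2 ratio was 0.060 (SD over guides 0.057), with 9 of 10 guides above 0. It held rank 80 of 98. In CF3 the guides had medians of 801.1 CPM in MYH high (347.7 to 1602) and 1037 CPM in MYH low (440.0 to 1928), and a median of -0.15 (SD over guides 0.13), with 9 of 10 guides below 0 (53.1% of all targeting guides of CF3). CF3 was the most widely spread of these pools, with 17.6% of its targeting guides at or below -0.3 and 13.9% at or above 0.3, and CDK10 ranked 22 of 106 there. Centred on the CF3 negative controls, which stood at 1.30, CDK10 had -1.44, which is its median less that of the controls.

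CDK11A lay near 0 in both pools. In CF2 its 10 guides had medians of 706.1 CPM in MYH high (447.7 to 1726) and 840.6 CPM in MYH low (348.7 to 2024), and a median of 0.011 with 5 guides on each side of 0. The SD over guides of 0.25 was the largest of the 13 measurements, with guides from -0.34 to 0.49 and 2 of 10 at or above 0.3 (8.97% of all targeting guides of CF2). In KP1 it had 1040 CPM in MYH high (367.6 to 1914) and 1025 CPM in MYH low (299.9 to 1985), and a median of 0.017 (SD over guides 0.12), with 9 of 10 guides above 0 and 1 guide at 0.36, where 2.71% of all targeting guides of KP1 reached 0.3. CDK11A has a near-identical neighbouring copy, CDK11B, with 1 protein-coding gene between them in the RefSeq table for GRCh38.p14. Guides filed under one may cut the other, so values of both are uncertain as to the gene. CDK11B was carried by KP2 and had a median of 0.12 (SD over guides 0.098), with 9 of 10 guides above 0.

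In order from the lowest, the medians ran from CCNH (-0.16) through CDK10 in CF3, CDK7 in CF1, CDK9 in CF2, CTDP1 in KP2 and CF2, CDK12 in KP2 and CDK7 in KP1 to CDK9 in KP2 (-0.076). The other 4, CDK11A in both pools, CDK12 in CF1 and CDK10 in KP2, lay between 0.011 and 0.060. No order between neighbours was tested. Among genes carried by a pair of pools, 3 of the 6 members had both medians below 0 (50%), as did 6 of the 22 other such genes (27.3%). Distances between pairs of medians were taken in the order that gave the smaller value, with pools not matched. By that distance the 3 genes nearest to CDK9 were MBD3 (-0.12 in TF3 and -0.076 in CF2), CDK7 and CTDP1. The distances were 0.0093, 0.014 and 0.029 over 2 pools each. For MBD3 and CTDP1 the CF2 median was set against CDK9 in KP2, although CDK9 had -0.13 in CF2. CDK7 was carried by CF1 and KP1 and so shared no pool with CDK9. None of the 3 distances therefore shows likeness within a pool.

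The authors' deposited table of model scores per target (beta) put 10 of the 13 measurements below 0, and 12 had the sign of the median given here. It rests on the same counts and is not independent. In the fdr column of the authors' deposited table, whose method is not stated there, CCNH and CDK7 in CF1 and CTDP1 in CF2 were listed at 0, and no other member was under 0.05. Over all 984 targets of the authors' deposited table, 3.15% had an fdr at or under 0.05 with a beta below 0 and 0.407% with a beta above 0. Beta was -0.12 for CCNH, -0.13 for CDK7 and -0.12 for CTDP1 in the authors' deposited table. By the Wald column that the authors' deposited table also gives, 0 of the 13 were under 0.05, the lowest being CCNH at 0.083, and 0.305% of all targets were. CDK7 in CF1 ranked 3 of 107 from the lowest by beta in the authors' deposited table, against 10 of 107 by the median over guides.

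Genes of the same machinery had medians from -0.23 to 0.19, and both ends were in CF3, the most widely spread of these pools. Outside CF3 lay 17 of their 27 measurements and 12 of the 13 of the members. There the machinery ran from -0.17 (MNAT1) to 0.12 (CDK11B) and the members from -0.16 (CCNH) to 0.060 (CDK10). The wider range of the machinery thus rests largely on CF3. Of 64 genes in 5 lists of transcriptional CDK and CTD machinery outside the members, 27 were measured with at least 3 guides. Of these, 0 reached 0.3 in either direction (2.24% of all targets did). Their median was -0.031 with 18 of 27 below 0 (53.6% of all targets). Without CF3 it was 10 of 17 (53.4% of targets), with a median of -0.023. In the TFIIH list 6 genes could be used, with 4 below 0 and a median of -0.053; without CF3 2 genes were left, both below 0, with a median of -0.15. Its lowest was MNAT1 and its highest ERCC3, a TFIIH helicase, at 0.19 (SD over guides 0.34) in CF3. ERCC2, the other TFIIH helicase, had -0.13 (SD over guides 0.18) in CF2.

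Of the 13 elongation factors measured, 12 had a median under 0 (53.6% of all targets), with a list median of -0.073. Without CF3 it was 7 of 8 (53.4% of targets), with a median of -0.046; the difference from other targets was not tested. The lowest was SUPT4H1, a subunit of the pausing and elongation factor DSIF, at -0.23 (SD over guides 0.17) with 9 of 10 guides below 0. Its partner SUPT5H, a substrate of CDK9, had -0.13 (SD over guides 0.13), also with 9 of 10 below 0. Both were carried by CF3; SUPT5H and ERCC2 were picked for mention after their values were seen. The highest was SUPT16H, a subunit of the histone chaperone FACT, at 0.027. Of the P-TEFb regulators, EAF1, a partner of the ELL elongation factors, had 0.011 (SD over guides 0.12) in CF1, with 5 of 10 guides below 0. The T-type cyclins, cyclin K and CDK19 were not analysed here.

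The other transcriptional cyclin-CDKs had medians above 0. CDK8, the kinase of Mediator, had 0.0015, its partner CCNC 0.057, CDK13, the paralog of CDK12, 0.0094, and CDK11B 0.12. Thus 0 of 4 lay below 0 (53.6% of all targets), which is too few to set them apart. CDK8 and CDK13 were near 0 beside their SDs over guides of 0.15 and 0.11. Of the CTD phosphatases other than CTDP1, SSU72 had -0.063 in KP2 and CTDSP2 0.010 in KP1.

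Cell cycle CDKs and RNA polymerase II subunits had list medians of opposite sign. Of 8 measurements of 5 cell cycle CDKs, 3 reached 0.3 as higher (1.53% of all targets) and 0 lay below 0 (53.6% of all targets), with a list median of 0.074. CDK1, which drives entry into mitosis, had 0.60 (SD over guides 0.33) in CF2 and 0.54 (SD over guides 0.25) in KP2; CF2 is the pool in which CDK9 had -0.13. CDK6, a G1 kinase, had 0.39 (SD over guides 0.14) in CF1, where CDK7 had -0.14, and 0.058 (SD over guides 0.14) in KP2, within the limit. The lowest of that list was CDK2 in KP2 at 0.0016. Of the other CDK-named kinases, CDK15 had 0.087 and CDK18 0.040 in KP2. Of 9 measured subunits of RNA polymerase II, 7 lay below 0, with a list median of -0.14; without CF3 it was 2 of 2, with a median of -0.23. POLR2I, a small subunit, had the lowest value at -0.27 (SD over guides 0.19) in CF2 and POLR2B, the second largest subunit, the highest at 0.18 (SD over guides 0.14) in CF3. Of these 9, 7 were carried by CF3. With 1 sample per arm the differences between these lists and the members were not tested.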

How the data were processed

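PCR of the guide cassette was run on DNA of each sorted or harvested RH4 sample, per the labels' protocols. For each of 26 samples the authors deposited whole-number read counts by guide. The submitters' processing notes name MAGeCK and FastQC; the sources used here give no versions or settings. Per target and for 10 pools, the authors also deposited a model score (beta, z) with p-values. Whether beta is in log2 or natural units is unknown, and 2 columns without a name were left unused.

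Counts were scaled to CPM, a pseudocount of 1 CPM was added, and log2 ratios were taken for guides with at least 10 counts over both arms, which removed 0 member guides. Ratios were centred on all guides (pools) or on the negative controls (exon scan). A gene's value is the median over its guides, called at 0.3 or more from 0 with at least 3 guides. The 7 control sets shared by the pools were left out of the targets. Genes named were the members, their direct partners, the called, highest and lowest genes of 8 lists, and the 3 nearest to CDK9. 1 gene that this rule names is not reported here. Members and lists were chosen with earlier results of these data known. The calculation was tested on simulated counts with counting noise only and the same shift for all guides of a gene. The test therefore did not cover the spread over guides. Alternatives covered centring, scaling, pseudocount, count minimum, summary, limit and CF3. All 7 symbols matched the RefSeq table. Tools were Python 3.11.15 with pandas 2.3.3, numpy 2.4.6 and scipy 1.17.1, and edgeR 4.0.16 under R 4.3.3 for TMM factors only.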

Additional observations from a re-analysis of the deposited data

Results flagged for a closer look

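CDK10 had a median log2 ratio of -0.15 in CF3 and 0.060 in KP2, and CDK12 had 0.023 in CF1 and -0.083 in KP2. They are listed because a gene had opposite signs in its 2 pools, each with 1 sample per arm; neither difference was tested. The negative-control guides had a median of 1.30 in CF3, with all 10 guides between 0.81 and 2.22, where the other 9 pools had medians of -0.11 to 0.067. The comparison of 1 pool with the rest that marked it marks about 1 in 20 groups by chance. In CF3 the PCNA guides had 1.34 and the guides to PAX3 outside the fusion 1.04. CDK10 is the member that CF3 carried.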

How the results depend on the processing

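Of 135 values of the members under alternatives, 33 moved by over 1.5 times or changed sign: 15 with no centring, 6 with centring on negative controls, 5 with the mean over guides, 3 with summed CPM, and 2 each with TMM factors and with centring on all guides. Centred on the negative controls, CDK9 and CTDP1 in CF2 had -0.035 and -0.0080 and CDK11A in CF2 0.10. The same centring put CDK7 and CCNH in CF1 further below 0, at -0.21 and -0.23. The highest control guide of CF1 stood at 4.43. CDK11A in KP1 had 0.0088 and CDK10 in CF3 -1.44, which made 1 measurement reach 0.3. With that centring 23 member guides lay at or below -0.3, where 15 did in the main setting. All 10 CDK10 guides in CF3 were among the 23, since the control median of 1.30 was subtracted from each. With no centring that count was 24, CDK10 in KP2 had -0.026, CCNH in CF1 -0.24 and CDK9 in the exon scan sort -0.20. All 13 measurements were then below 0, as were the pool medians (-0.14 to -0.066). Shares of all targeting guides and targets were not counted for these 2 centrings. The counts of 23, 24 and 13 therefore have no background. The sign changed in 7 of the 135: with no centring for CDK12 in CF1, CDK11A in KP1 and CF2, CDK10 in KP2 and CDK9 in the dropout, and for CDK12 in CF1 also with negative-control centring (-0.044) and with the mean. In the main setting no median lay beyond -0.16 or 0.060, so no measurement reached a limit of 0.2. The count past the limit in that setting then had to be 0 at 0.5 and without CF3 as well, which is no separate check. With no centring some medians passed 0.2, such as CCNH in CF1 at -0.24. Leaving out 1 guide at a time, medians ran from -0.16 to -0.13 for CDK7 in CF1, around -0.13 for CDK9 in CF2 and from -0.12 to -0.100 for CTDP1 in CF2. Both arms of a library enter each ratio together. No paired analysis was possible because the labels give no replicate numbers and each arm has 1 sample, apart from the CDK9 medians of 3 libraries. Counting error is small beside the spread over guides.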
